A study of Homo sapiens with 10 samples.

Results

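Metallothioneins are small cysteine-rich proteins that bind zinc, copper and cadmium. The 8 genes described here are 6 metallothionein genes (MT2A, MT1E, MT1F, MT1G, MT1H and MT1X), the zinc-sensing transcription factor MTF1 and the zinc exporter SLC30A1. They were chosen by name from a table of 14785 rows, as every MT1 gene with a single closing letter plus those 3 named genes, and the set was proposed with earlier results of these data in view. The MT1 genes that the table does not list were not analysed here.

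The cells were H1, a long-used human embryonic stem cell line, labelled as wild type and grown in mTeSR1 on Matrigel. All 5 groups carried a short hairpin RNA (shRNA) delivered by virus packaged in 293T cells with the plasmids PMD2G and PsPAX2. The hairpin was directed against luciferase in the control (shLUC), or against SMARCA4 (shSMARCA4), MAFK (shMAFK), E2F6 (shE2F6) or KDM1A (shKDM1A). Virus was collected after 36 hours and puromycin was added 2 days later in every group, the control included. Each group had 2 libraries, biological duplicates per the series design, which makes 10 libraries. How many hairpins were used per target, and which sequences, is not given in the sources used here.

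In textbook terms, MTF1 binds free zinc through its zinc fingers, enters the nucleus and binds short metal response elements in promoters. Its best known targets are the metallothionein genes, which buffer zinc inside the cell, and SLC30A1, whose product exports zinc through the plasma membrane. Transcription of metallothionein genes is therefore widely read as a gauge of zinc available in the cell, although glucocorticoids and oxidative stress also act on them.

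The values are normalized tag counts, whole numbers that were normalized before deposit and are not raw read counts. Library totals lay between 22836548 and 22855295, a range set by that normalization, so the read depth is unknown. The targeted transcripts were at 12.7% (SMARCA4), 42.1% (KDM1A), 59.6% (MAFK) and 61.3% (E2F6) of the shLUC mean. For MAFK, the higher knockdown value exceeded that of 2 libraries from other groups. All 7 pluripotency markers were in the table, and their summed value was at least 98534 in every library. The sum does not show changes of single markers. In shSMARCA4 against shLUC, 0 of the 7 had a limma adjusted p under 0.05. At an unadjusted limma p under 0.05, 3 were lower and 1 was higher. The spread between replicates over all rows was widest in shKDM1A, at 0.530 on the log2 scale against 0.264 to 0.335 in the other groups.

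The 6 metallothionein genes lie in 1 cluster on chromosome 16 (GRCh38, GENCODE release 29), from MT2A at chr16:56608199-56609497 to MT1X at chr16:56682424-56684196. The cluster spans 75998 bases. MT1G is on the minus strand and the other 5 on the plus strand. MTF1 lies at chr1:37809567-37859620 and SLC30A1 at chr1:211571568-211578742, both on the minus strand. All 8 are annotated as protein-coding, and values are per whole gene.

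The promoters of 4 genes are shown because MTF1, described above, binds a short element in promoters. Whether MTF1 had a part in the values of these genes was not tested. RefSeq promoter windows (GRCh38.p14) were found for 5 of the 8 genes: MT2A, MT1H, MT1X, SLC30A1 and MTF1. Each line gives the 250 bases before the RefSeq start, 5′ to 3′ on the gene's strand. Capitals mark the metal response element core, searched as TGCACNC and TGCGCNC on both strands.
MT2A: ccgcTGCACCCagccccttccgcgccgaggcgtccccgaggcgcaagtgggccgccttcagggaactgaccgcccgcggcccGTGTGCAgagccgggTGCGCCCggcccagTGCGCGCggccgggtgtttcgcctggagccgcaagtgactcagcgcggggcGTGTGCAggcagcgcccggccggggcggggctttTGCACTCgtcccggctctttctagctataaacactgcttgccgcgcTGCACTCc
MT1H: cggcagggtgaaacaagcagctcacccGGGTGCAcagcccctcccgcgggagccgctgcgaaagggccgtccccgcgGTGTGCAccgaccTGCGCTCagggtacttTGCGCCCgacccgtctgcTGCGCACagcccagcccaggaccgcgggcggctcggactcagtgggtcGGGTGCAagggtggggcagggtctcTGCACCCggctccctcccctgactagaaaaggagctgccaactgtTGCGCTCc
MT1X: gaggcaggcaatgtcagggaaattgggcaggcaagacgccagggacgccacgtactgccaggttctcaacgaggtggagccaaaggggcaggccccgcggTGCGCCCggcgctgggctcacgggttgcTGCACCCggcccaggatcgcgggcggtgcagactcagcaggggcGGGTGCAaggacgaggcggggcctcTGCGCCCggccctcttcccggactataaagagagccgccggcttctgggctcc
SLC30A1: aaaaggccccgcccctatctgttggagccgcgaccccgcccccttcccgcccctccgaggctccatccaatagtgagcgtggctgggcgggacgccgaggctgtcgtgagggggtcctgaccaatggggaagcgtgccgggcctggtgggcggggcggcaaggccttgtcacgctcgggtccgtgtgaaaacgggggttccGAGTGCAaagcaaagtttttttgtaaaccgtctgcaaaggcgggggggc

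The MT2A window is chr16:56608334-56608583, the MT1H window chr16:56669564-56669813, the MT1X window chr16:56682220-56682469 and the SLC30A1 window chr1:211579162-211579411. The MT2A window lies inside the GENCODE gene, whose start is earlier than the RefSeq start, and the MT1X window overlaps its GENCODE gene in part. For SLC30A1 the GENCODE start, at 211578742 on the minus strand, is later than the RefSeq start. The bases just before that GENCODE start were not searched. The core occurred 8 times before the start of MT1H, 7 times before MT2A, 4 times before MT1X, 1 time before SLC30A1 and 0 times before MTF1. Of 35116 promoters of the same length, 24.8% held at least 1 match, 0.370% at least 4, 0.0313% at least 7 and 0.0171% at least 8. In 300-base windows that run past the RefSeq start, the count was 2 for SLC30A1 and 8 for MT2A, and unchanged for MT1H, MT1X and MTF1. A match is a run of letters and was not tested as a binding site.

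The antioxidant response core TGANNNNGC occurred 2 times before MT1X, 1 time before MT2A and 1 time before SLC30A1, and 35.2% of promoters held it. The longer Maf/CNC element, which small MAF proteins such as MAFK bind with CNC partners, contains that core. It occurred 1 time, before MT1X, and 1.08% of promoters held it. The E2F element, searched as TTTCCCGC and TTTGGCGC, occurred in 0 of the 5 windows and in 1.93% of promoters.

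**Figure D1:**
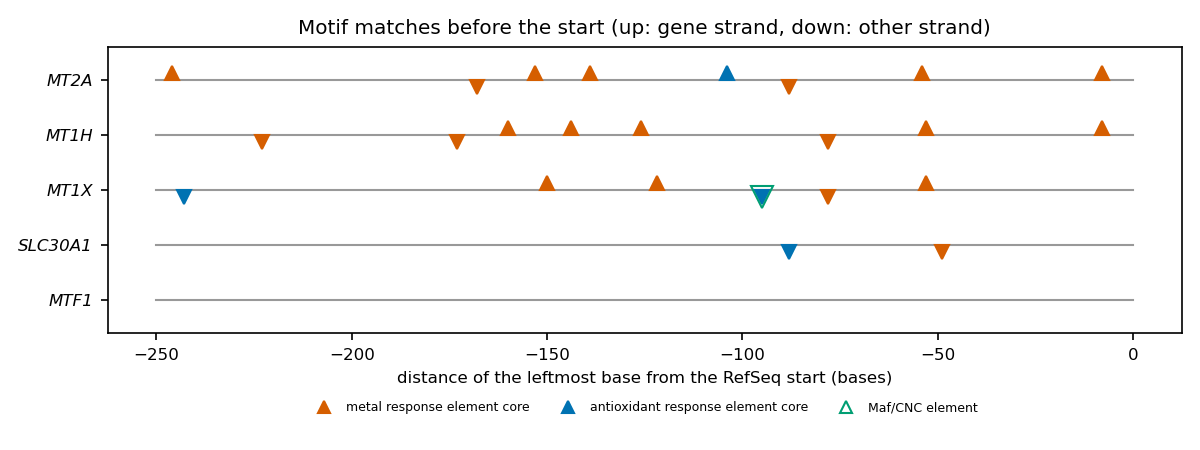
Positions of motif matches in the 250 bases before the RefSeq start of the 5 genes with a promoter window; the horizontal axis is the distance from the start in bases and each row is 1 gene. Triangles pointing up are on the gene's strand and those pointing down on the other. MT1H holds 8 metal response element cores, MT2A 7, MT1X 4, SLC30A1 1 and MTF1 0.

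Across the 10 libraries the metallothionein genes were high in shKDM1A, low in shSMARCA4 and variable between replicates in shMAFK and shE2F6. For all 6 genes the shKDM1A mean was the highest of the 5 groups, the shMAFK mean the second and the shSMARCA4 mean the lowest. These levels were in view when the genes were chosen and are a description.

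MT2A, a widely expressed metallothionein, stood at 245 and 362 normalized tag counts in shLUC. It stood at 1501 and 1173 in shKDM1A, 760 and 309 in shMAFK, 91 and 172 in shSMARCA4, and 110 and 639 in shE2F6. Both shKDM1A libraries lay above both control libraries, as in 17.9% of all rows. Both shSMARCA4 libraries lay below them, as in 25.4% of all rows. The shE2F6 pair lay on either side of the control.

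MT1X encodes another ubiquitous isoform. Its values were 2061 and 2758 in shLUC, 4390 and 4958 in shKDM1A, 3348 and 1930 in shMAFK, 877 and 1099 in shSMARCA4, and 1859 and 1903 in shE2F6. Unlike MT2A, it differed little between the shE2F6 replicates.

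MT1G, on the minus strand, was at 878 and 1600 in shLUC, 3755 and 3901 in shKDM1A, 2607 and 1290 in shMAFK, 446 and 436 in shSMARCA4, and 590 and 1701 in shE2F6. MT1H, its neighbour on the opposite strand, was at 373 and 572 in shLUC, 2586 and 1596 in shKDM1A, 1112 and 520 in shMAFK, 162 and 267 in shSMARCA4, and 234 and 916 in shE2F6. In both genes the shSMARCA4 and shKDM1A libraries stood on opposite sides of the control without overlap. Of all rows, 25.4% lay below the control without overlap in shSMARCA4 and 17.9% above it in shKDM1A. The share with both was not counted.

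MT1E was at 235 and 382 in shLUC, 1012 and 891 in shKDM1A, 626 and 422 in shMAFK, 108 and 173 in shSMARCA4, and 127 and 439 in shE2F6. MT1F was at 146 and 246 in shLUC, 388 and 348 in shKDM1A, 346 and 160 in shMAFK, 42 and 55 in shSMARCA4, and 108 and 336 in shE2F6. MT1F reached 80 in 8 of the 10 libraries, and the other 7 genes in all 10.

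**Figure D2:**
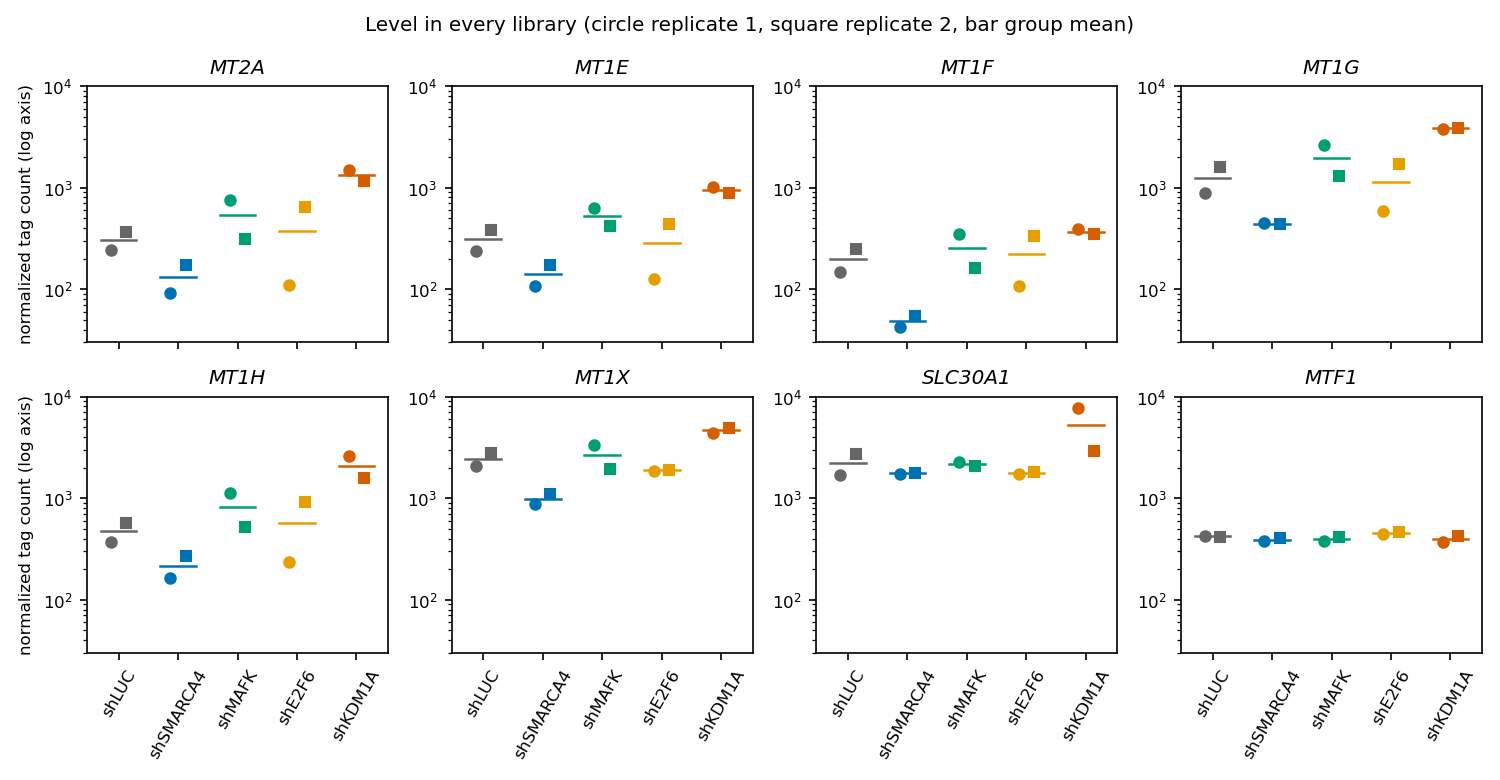
Normalized tag counts of the 8 genes in each library on a log axis, with 1 point per library, 2 libraries per group and a bar at the group mean. The 6 metallothionein genes are lowest in shSMARCA4 and highest in shKDM1A, whereas MTF1 lies between 374 and 461 throughout.

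Per kilobase of merged exons, the shLUC mean was 1652 for MT1G, 1359 for MT1X, 654 for MT1H, 293 for MT1E, 234 for MT2A and 104 for MT1F. On the same scale it was 401 for SLC30A1 and 52.4 for MTF1. How reads that match several paralogs were assigned is not stated. Of the 50-base words in the transcripts, 18.3% were shared with another gene for MT1X, 16.5% for MT1G, 15.8% for MT1H, 7.10% for MT1E, 3.02% for MT2A and 1.22% for MT1F. Of the 100-base words, 11.3% were shared for MT1X, all with AC026461.1, 1.39% for MT1H, and 0% for the other 4 genes. The read length is not given in the sources used here, so how far these values can hold reads of relatives is not known. A further annotated gene, AC026461.1, overlaps MT1X, and whether counting used strand is not stated.

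The ratio of the highest to the lowest library was 16.5 for MT2A, 16 for MT1H, 9.37 for MT1E, 9.24 for MT1F, 8.95 for MT1G and 5.65 for MT1X. The pooled SD between replicates on the log2 scale was 0.966 for MT2A, 0.802 for MT1H, 0.679 for MT1F, 0.669 for MT1E, 0.641 for MT1G and 0.307 for MT1X. Its median over 9633 rows of similar level was 0.204. The metallothionein genes therefore varied more within groups than most rows of their level, and MT1X the least of the 6.

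SLC30A1, the zinc exporter, was at 1687 and 2702 in shLUC, 7682 and 2910 in shKDM1A, 2258 and 2061 in shMAFK, 1713 and 1788 in shSMARCA4, and 1740 and 1809 in shE2F6. Both shKDM1A libraries lay above the control, the second by little. The same position held for 17.9% of all rows. MTF1, the sensor itself, was at 423 and 418 in shLUC, 374 and 423 in shKDM1A, 381 and 414 in shMAFK, 376 and 402 in shSMARCA4, and 449 and 461 in shE2F6. Its highest library was 1.23 times its lowest.

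After SMARCA4 knockdown, 1 of the 8 genes, MT1X, passed the test and fell by 1.28 on the log2 scale (SE 0.26, limma adjusted p = 0.0302, n = 2 against 2). SMARCA4 encodes a catalytic subunit of the BAF chromatin remodelling complexes. Of all rows tested, 4.18% passed in this comparison. The other 5 metallothionein genes had log2 differences of -1.96 (MT1F, adjusted p = 0.0833), -1.42 (MT1G, adjusted p = 0.176), -1.24 (MT2A, adjusted p = 0.470), -1.15 (MT1H, adjusted p = 0.416) and -1.13 (MT1E, adjusted p = 0.321) in limma. All 6 lay below both control libraries without overlap, which held for 25.4% of all rows. Their median was -1.26, beside 0.01 over all rows. The differences were -0.29 for SLC30A1 (limma adjusted p = 0.817) and -0.11 for MTF1 (limma adjusted p = 0.797).

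The MT1X call was lost when any 1 of 6 libraries was left out. The limma adjusted p was then 0.0968 (shLUC replicate 1), 0.255 (shLUC replicate 2), 0.171 (shSMARCA4 replicate 1), 0.0981 (shSMARCA4 replicate 2), 0.0553 (shE2F6 replicate 1) and 0.0555 (shE2F6 replicate 2). Some markers of other cell types also differed in shSMARCA4. The summed value of the 2 of 4 mesendoderm markers in the table was 856 to 4239 in shSMARCA4 and 10 to 58 elsewhere. The 1 of 4 endoderm markers in the table, FOXA2, was at 170 and 792 in shSMARCA4 and 0 to 4 elsewhere. Against shLUC, 1 of the 2 mesendoderm markers passed the limma test and FOXA2 did not. Every row of the table reached 80 in at least 2 libraries. The mesendoderm markers, MIXL1 and EOMES, and FOXA2 reached it only in shSMARCA4. They are listed only because of that group, so their contrast with the other groups is a description. The 1 of 3 trophoblast markers in the table, KRT7, fell in shSMARCA4 to 30 and 44 from 218 and 296 in shLUC (-2.77, limma adjusted p = 0.00463). The 1 of 3 neural markers, OTX2 (-0.67), and the 1 of 3 mesoderm markers, KDR (0.42), did not pass. The part of these cell types in the metallothionein values was not tested, and in bulk RNA fewer cells of a type and less RNA per cell cannot be told apart.

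After KDM1A knockdown, 0 of the 8 genes passed the test. KDM1A encodes a demethylase of histone H3 lysine 4. Over all rows 0.0271% passed, a total of 4. The largest differences were 2.15 for MT2A (SE 0.73, limma adjusted p = 0.371) and 2.13 for MT1H (SE 0.61, limma adjusted p = 0.311), where the shKDM1A means were 441% and 443% of the shLUC means. The others were 1.69 for MT1G, 1.66 for MT1E, 0.97 for MT1X and 0.95 for MT1F, with limma adjusted p from 0.289 (MT1X) to 0.487 (MT1F). At an unadjusted limma p under 0.05 there were 5 of the 6 (and 6 of the 8 genes with SLC30A1), against 11.5% of all rows.

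All 6 lay above both control libraries without overlap, as did 17.9% of all rows. The median difference was 1.68, beside -0.02 over all rows. SLC30A1 differed by 1.15 (SE 0.39, limma adjusted p = 0.372) and MTF1 by -0.08 (limma adjusted p = 0.822). SLC30A1 differed by 0.45 without shKDM1A replicate 1 and by 1.85 without shKDM1A replicate 2. MT1H differed by 2.48 without shKDM1A replicate 2. In these fits 1 library stood for shKDM1A, so no test result is given for them. In shKDM1A replicate 1, POU5F1, a pluripotency factor, stood at 148866, against 16615 to 51684 in the other 9 libraries. The other 6 pluripotency markers summed to 76278 there, within the range of 69449 to 98260 in the other libraries. The part of that library's POU5F1 value in the result was not tested. The summed metallothionein value was 13632 in that library and 12867 in the other shKDM1A library.

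After MAFK knockdown, 0 of the 8 genes passed, while 0.0135% of all rows passed. At an unadjusted limma p under 0.05 there were 0 of the 8, beside 8.77% of all rows. MAFK is a small MAF protein that dimerizes with CNC factors such as NRF2. The 6 metallothionein differences had a median of 0.67 and limma adjusted p from 0.781 to 0.989. The 95% interval for MT1X, the least variable of the 6, was -0.50 to 0.69 around a difference of 0.09. MT1E alone lay above the control without overlap, as did 23.8% of rows.

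After E2F6 knockdown, 0 of the 8 genes passed, and 0% of all rows did. At an unadjusted limma p under 0.05 there were 0 of the 8, beside 5.09% of all rows. E2F6 is a repressive E2F factor. The median metallothionein difference was -0.20. The 95% interval for MT2A was -1.81 to 1.48 around -0.16, so differences of that size in either direction are not excluded for this gene.

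**Figure D3:**
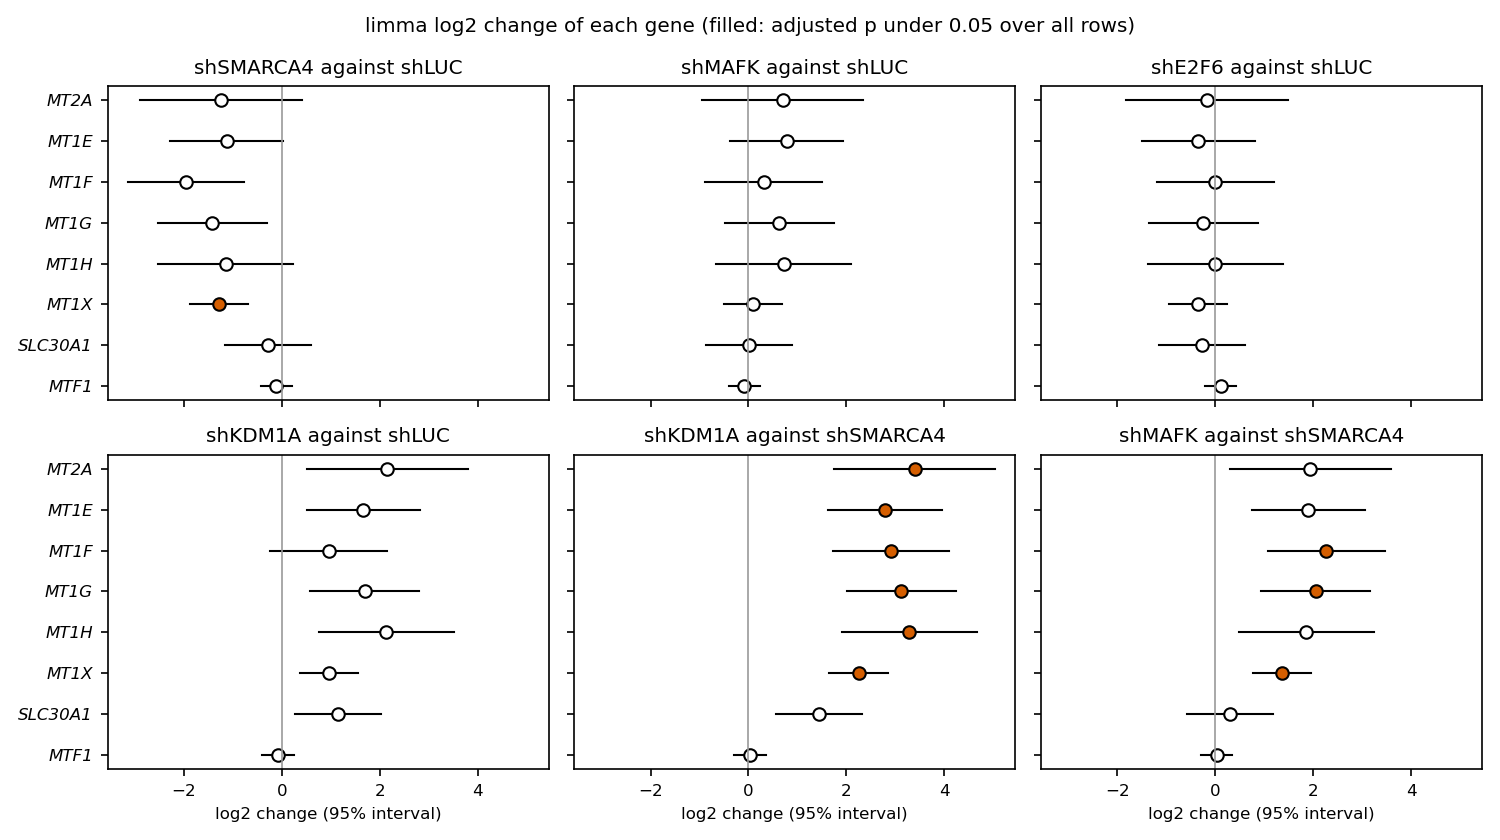
limma log2 change (horizontal axis) of each of the 8 genes with its 95% interval, for each knockdown against shLUC and for shKDM1A and shMAFK against shSMARCA4; filled points have an adjusted p under 0.05 over all rows. Against shLUC, MT1X in shSMARCA4 (-1.28) is filled, and against shSMARCA4, 6 points in shKDM1A and 3 in shMAFK are.

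The knockdowns were also compared with one another. These 6 comparisons share libraries with each other and with those against shLUC, so their values are set side by side and not counted as separate evidence. Between shKDM1A and shSMARCA4, all 6 metallothionein genes passed and were higher in shKDM1A, as 4.13% of all rows were (6.87% in either direction). The limma differences were 3.40 for MT2A (adjusted p = 0.0274), 3.28 for MT1H (adjusted p = 0.0157), 3.11 for MT1G (adjusted p = 0.00797), 2.91 for MT1F (adjusted p = 0.0143), 2.79 for MT1E (adjusted p = 0.0152) and 2.25 for MT1X (adjusted p = 0.00215). SLC30A1 differed by 1.43 (limma adjusted p = 0.0615) and MTF1 by 0.03 (limma adjusted p = 0.906). Only MT1X kept its call without either shSMARCA4 library or with group weights. Without shKDM1A replicate 1, MT1G and MT1X kept theirs.

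Between shMAFK and shSMARCA4, 3 of the 8 genes passed, all higher in shMAFK, beside 4.27% of all rows that were higher (7.76% in either direction). They were MT1F at 2.27 (limma adjusted p = 0.0322), MT1G at 2.05 (limma adjusted p = 0.0362) and MT1X at 1.37 (limma adjusted p = 0.0155). The count was 0 without shSMARCA4 replicate 1, shSMARCA4 replicate 2 or shMAFK replicate 1, 1 without shMAFK replicate 2, and 6 without either shE2F6 library. In the other 4 pairs 0 of the 8 genes passed: shKDM1A against shMAFK (0.0406% of rows), shKDM1A against shE2F6 (0.129%), shE2F6 against shSMARCA4 (3.55%) and shMAFK against shE2F6 (0.487%). The limma adjusted p of MT1X was 0.278 in the first pair and 0.104 in the second. At an unadjusted limma p under 0.05 there were 3 of the 8 genes in shKDM1A against shMAFK (13% of all rows) and 6 in shKDM1A against shE2F6 (15.2%). There were 3 in shE2F6 against shSMARCA4 (15.6%) and 0 in shMAFK against shE2F6 (13.1%).

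A moderated F-test among the 4 knockdowns passed for 5 of the 8 genes, beside 6.64% of all rows. The limma adjusted p was 0.00690 for MT1X, 0.0248 for MT1G, 0.0377 for MT1E, 0.0382 for MT1F and 0.0458 for MT1H. It was 0.0729 for MT2A, 0.113 for SLC30A1 and 0.589 for MTF1. The count was 1 with group weights (MT1X), 2 without the mean-variance trend and 3 with the replicate number as a block. It was 0 without shSMARCA4 replicate 1, 1 without shSMARCA4 replicate 2, and 2 (MT1G and MT1X) without either shLUC library, either shMAFK library or shKDM1A replicate 1.

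The sum of the 6 metallothionein genes was 3938 and 5920 in shLUC, 13632 and 12867 in shKDM1A, 8799 and 4631 in shMAFK, 1726 and 2202 in shSMARCA4, and 3028 and 5934 in shE2F6. The group mean was 0.398 times the shLUC mean in shSMARCA4, 1.36 times in shMAFK, 0.909 times in shE2F6 and 2.69 times in shKDM1A. As log2 ratios these were -1.33, 0.45, -0.14 and 1.43. The shMAFK ratio turned to -0.090 without shMAFK replicate 1. The shE2F6 ratio turned to 0.27 without shE2F6 replicate 1, to 0.19 without shLUC replicate 2, to 0.29 with the median of the genes in place of the sum, and to 0.045 without MT1X. With the median the shKDM1A ratio was 2.12. The makeup of the sum was not fixed: MT1X supplied 61.4% of it in shE2F6 replicate 1 and 32.1% in shE2F6 replicate 2.

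**Figure D4:**
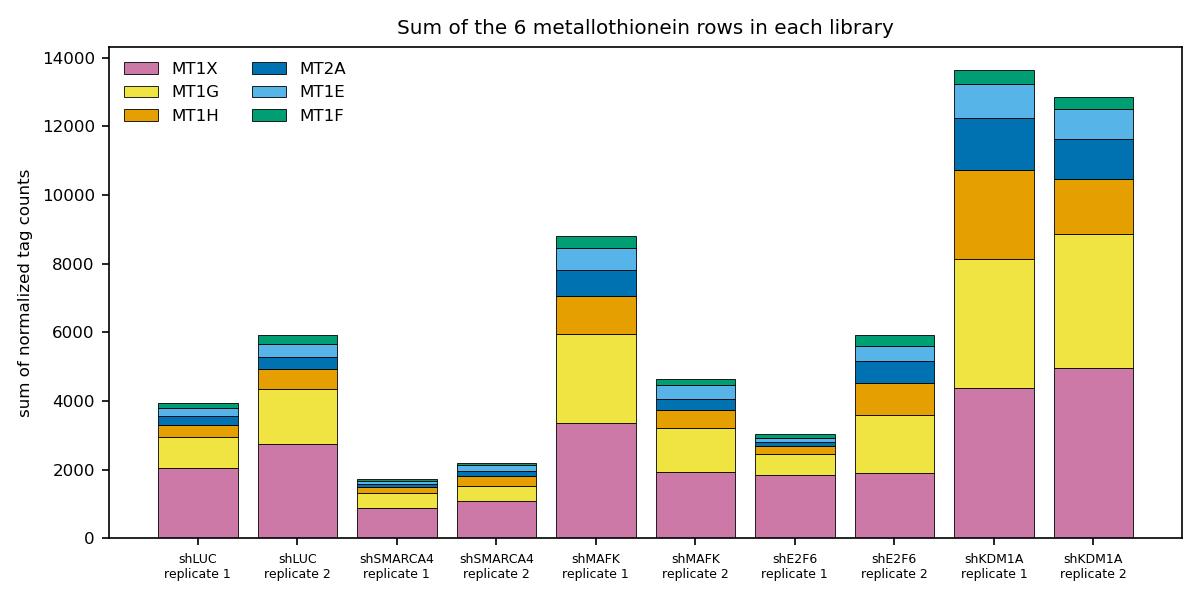
Summed normalized tag counts (vertical axis) of the 6 metallothionein genes, with 1 stacked bar per library and 1 colour per gene. Both shSMARCA4 libraries (1726 and 2202) lie below and both shKDM1A libraries (13632 and 12867) above the shLUC libraries (3938 and 5920).

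The replicates of a group were also compared. In shE2F6 all 6 were lower in replicate 1, by a median of -1.70 on the log2 scale. In shMAFK all 6 were higher in replicate 1, by a median of 1.05, and in shLUC all 6 were lower in replicate 1, by a median of -0.66. In shSMARCA4 5 of the 6 were lower in replicate 1 (median -0.53), and in shKDM1A 4 were higher and 2 lower (median 0.17). Over the 10 libraries, Pearson's r of log2 values between pairs of metallothionein genes was 0.875 to 0.993, with a median of 0.936 over 15 pairs. SLC30A1 had r from 0.577 to 0.778 with the 6 genes, and MTF1 from -0.138 to 0.150. These coefficients describe 10 libraries that share groups, a normalization and, among paralogs, some sequence.

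Against the log2 metallothionein sum, SLC30A1 had Pearson's r of 0.738 and Spearman's rho of 0.855. Without the 2 libraries farthest from the median sum, shKDM1A replicate 1 and shSMARCA4 replicate 1, these were 0.781 and 0.786. For MTF1 they were -0.059 and -0.036 over all 10 libraries.

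**Figure D5:**
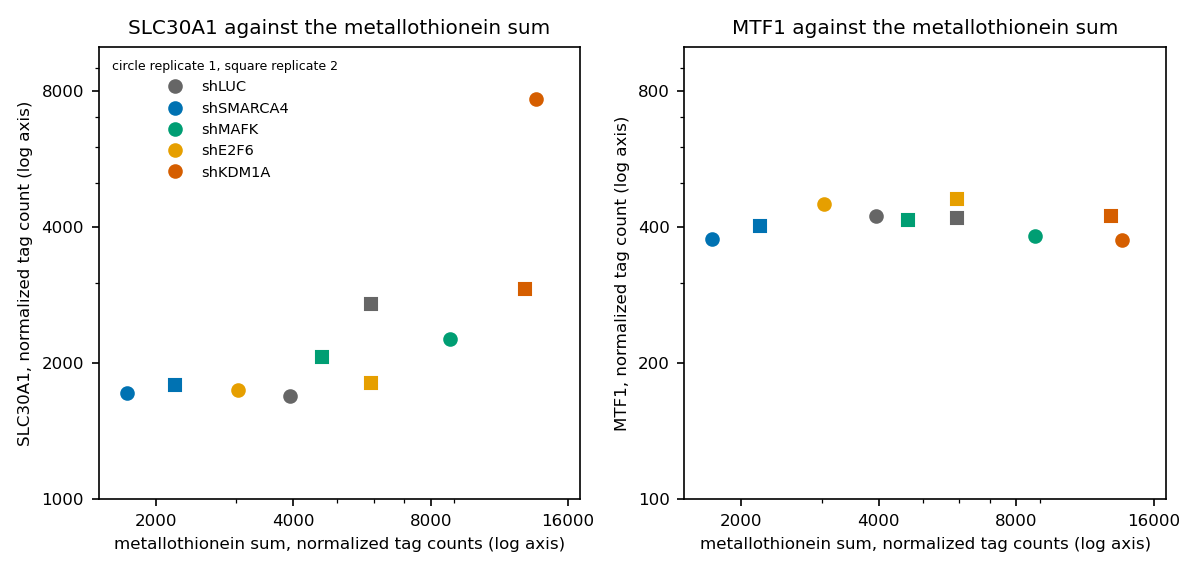
SLC30A1 (left) and MTF1 (right) normalized tag counts against the summed metallothionein value of the same library, both axes logarithmic, 1 point per library. SLC30A1 is higher where the sum is higher (r 0.738), whereas MTF1 stays between 374 and 461.

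Among 14728 rows with a mean of at least 50, the rows most like the mean metallothionein pattern were GTF2IRD1 (r 0.954), LINC02289 (r 0.937) and FMNL3 (r 0.930), over 10 libraries. Those most like MTF1 were SYNGR1 (r 0.973), SCHIP1 (r 0.934) and FRMPD3 (r 0.913). Those most like SLC30A1 were MAPKAPK5 (r 0.980), ANAPC11 (r 0.969) and CENPVL3 (r 0.964). All 3 of the last stood highest in shKDM1A replicate 1, as SLC30A1 did, at 2936, 4340 and 467.

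Other zinc exporters did not pass in any of the 10 comparisons (5 of 9 listed genes in the table). Their median difference was -0.32 in shSMARCA4 and -0.40 in shKDM1A against shLUC. SLC30A9 had -0.68 in shSMARCA4 (limma adjusted p = 0.142) and -0.63 in shKDM1A (limma adjusted p = 0.372). SLC30A7, which loads zinc into the secretory pathway, had -0.57 in shKDM1A (limma adjusted p = 0.345).

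Of the zinc importers, 10 of 14 were in the table and 0 passed against shLUC. SLC39A8 was at 2910 and 1903 in shSMARCA4 and at 839 and 626 in shLUC, a difference of 1.70 (limma adjusted p = 0.0946). It passed between shMAFK and shSMARCA4, where it was lower in shMAFK (-2.30, limma adjusted p = 0.0206). SLC39A10, an importer that MTF1 is known to repress, was at 2354 and 4340 in shKDM1A and at 5536 and 6143 in shLUC (-0.87, limma adjusted p = 0.341). In shSMARCA4 it was at 5172 and 4034 (-0.35, limma adjusted p = 0.605). MTF1 activity was not measured, and its part in these values was not tested.

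Of the copper handling genes, 11 of 12 were in the table and 0 passed against shLUC. ATP7A, a copper-exporting ATPase, was lower in shKDM1A than in shSMARCA4 (-0.77, limma adjusted p = 0.0296). COMMD1, which takes part in copper transporter traffic, was lower in shMAFK than in shSMARCA4 (-0.85, limma adjusted p = 0.0156) and than in shE2F6 (-0.996, limma adjusted p = 0.0458). It stood at 186 and 182 in shMAFK, beside 440 and 376 in shLUC.

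All 15 genes of metal and thiol stress were in the table, and 1 passed against shLUC. SRXN1, the sulfiredoxin that repairs peroxiredoxins, fell in shSMARCA4 from 568 and 534 to 347 and 294 (-0.78, limma adjusted p = 0.0270). Between shKDM1A and shSMARCA4, SLC7A11, the cystine importer, was higher in shKDM1A (2.31, limma adjusted p = 0.0339), as was SRXN1 (1.07, limma adjusted p = 0.00534). HMOX1, heme oxygenase, was lower there (-1.45, limma adjusted p = 0.0237), in the opposite direction to the metallothionein genes.

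Of 20 genes around the cluster, 14 were in the table and 1 passed against shLUC. CPNE2, a calcium-dependent phospholipid-binding protein, fell in shSMARCA4 from 584 and 522 to 134 and 272 (-1.53, limma adjusted p = 0.0281). The median of the neighbours was 0.01 in shSMARCA4 and -0.02 in shKDM1A, beside -1.26 and 1.68 for the metallothionein genes. BBS2 was at 692 and 859 in shSMARCA4, 880 and 629 in shKDM1A and 728 and 748 in shLUC. NUP93 was at 2818 and 3394, 3007 and 3246, and 3329 and 3060 in the same groups.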

How the data were processed

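RNA-seq of 10 H1 libraries was analysed from the table of single libraries. The deposited values are treated as scores: whole numbers called normalized tag counts, which the authors normalized by a step not given in the sources used here. All libraries held equal values at 80.3% of ranks, and the median was 594. The submitters' processing notes name STAR, STARsolo and hg38. RNA had an integrity number of at least 8.0. Columns not mapped to a sample numbered 0.

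Values were analysed as log2(value + 1), so fold changes of low rows are understated. The filter was a mean of at least 10, and the model was limma 3.58.1 in R 4.3.3 (lmFit, eBayes with trend; two-sided tests). All 10 libraries entered 1 fit with 5 residual degrees of freedom. P-values had Benjamini-Hochberg adjustment over 14785 rows, with a threshold of 0.05. The fit was tried on simulated data with changes placed in shKDM1A. Against shLUC it recovered 82.8% of log2 changes of 2 and 39.4% of changes of 1. Each simulated row had the same spread in all groups, so the wider spread of shKDM1A was not covered. The changed rows were drawn from the whole table, where the median pooled replicate SD was 0.222 on the log2 scale. It was 0.307 (MT1X) to 0.966 (MT2A) in the metallothionein genes. The recovered shares therefore do not give the share that would be found among these genes. Tables and plots used Python 3.11.15, pandas 2.3.3, numpy 2.4.6 and matplotlib 3.10.9.

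Named genes were the 8 members, the 3 rows most like each pattern, and genes drawn from the list genes that passed or had the largest differences. BBS2 and NUP93, from the genes around the cluster, were named outside that rule. The members and lists were chosen with earlier results of these data known. Alternatives covered the pseudocount (0.5 and 16), filter (none and 100), scaling, variance model, libraries fitted, replicate block and each library left out. Some of them could change little or nothing. The filter kept all 14785 rows and every library median was already 594. Dropping the filter or equalizing the medians therefore gave the main fit again. Quantile normalization acted on values already equal at 80.3% of ranks. Protein sequences were not analysed here.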

Additional observations from a re-analysis of the deposited data

How the results depend on the processing

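Against shLUC, the number of the 8 genes past the threshold in shSMARCA4 was 1, but 2 with group weights, 3 with only the 2 groups fitted, and 0 to 1 with single libraries left out. In shKDM1A it was 0. It changed only without shKDM1A replicate 2, where 1 library stood for the group and calls rose over the whole table, so those calls are not given. The F-test count of 5 became 2 without the mean-variance trend, 1 with group weights and 0 to 6 with single libraries left out. Over the pairs of knockdowns the count of 9 became 5 with group weights and 1 to 16 with single libraries left out. With the replicate number as a block the F-test count was 3. The numbers share no stated origin: 2 of 10 correlations of replicate differences exceeded 0.1, with a range of -0.05 to 0.337, so they were not taken as pairs.

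The log2 ratio of the summed metallothionein value in shE2F6 was -0.14, but 0.29 for the median of the genes, 0.045 without MT1X, and -0.70 to 0.27 with single libraries left out. In shKDM1A it was 1.43, and 2.12 for the median of the genes. In shMAFK it was 0.45, and -0.090 to 0.84 with single libraries left out.

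Directions that reversed with single libraries left out, as log2 ranges, were in shE2F6 MT1E (-1.23 to 0.55), MT1F (-0.81 to 0.82), MT1G (-1.01 to 0.52), MT1H (-0.98 to 0.99), MT2A (-1.43 to 1.10) and SLC30A1 (-0.61 to 0.073). In shMAFK they were MT1F (-0.24 to 0.86), MT1X (-0.30 to 0.49) and SLC30A1 (-0.32 to 0.35). SLC30A1 in shSMARCA4 ranged from -0.63 to 0.053 and MTF1 in shKDM1A from -0.17 to 0.0086. The cause was not tested. The rows passing over the whole table in shKDM1A numbered 4, and 1 to 3235 with single libraries left out. Read depth is unknown, so its limits cannot be given.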
